A study of Mus musculus with 249 samples.

Results

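The 43 genes described here belong to the Wnt signalling pathway and were followed in the brains of 248 mice. They were taken from the array annotation by symbol: every probe whose only gene symbol begins with Wnt, Fzd, Sfrp, Dkk or Dvl followed by a digit, or is Lrp5, Lrp6, Axin1, Axin2, Ctnnb1 or Porcn. The rule found 45 of the 23388 probes, and 45 of the 13645 that carry 1 symbol. They make up 43 of the 11508 genes measured, and 44 of the 45 probes had a value on all 248 arrays. There were 17 Wnt ligands, 9 Frizzled receptors, 2 co-receptors, 4 secreted Frizzled-related proteins, 4 Dickkopf genes, 3 Dishevelled genes, Axin1, Axin2 and Ctnnb1, and the ligand-modifying enzyme gene Porcn. No measured value took part in the choice, but the rule also states that Lrp6 and Sfrp1 have discrete levels, so those levels are described and not tested.

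All animals form 1 group: brain RNA of F2 mice of both sexes from C57BL/J6 and C3H/HeJ parents, with both strains on an ApoE null background, fed a Western (high-fat) diet between 8 and 24 weeks of age. An F2 mouse carries, at each place outside the sex chromosomes, 2, 1 or 0 copies of a given parental allele. Each animal's RNA (Cy3) was hybridised on 1 array against a pool of equal parts of all samples (Cy5), so a value is a log10 ratio of animal to pool, and 0.301 is a factor of 2. Such a ratio gives no level, so genes cannot be ranked by abundance, and brain markers cannot check the tissue against a pool made of the same tissue. The sex, genotype and array batch of each animal are not given, each animal has 1 array, and precision is limited by how many arrays there are. The ApoE deficiency and the diet are shared by all animals and the pool.

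Wnt proteins are secreted ligands that need a lipid, added by the enzyme Porcupine, to be released and to bind Frizzled receptors. In the canonical branch a Wnt binds a Frizzled together with Lrp5 or Lrp6, Dishevelled proteins carry the signal inside, and beta-catenin escapes the Axin-based complex that marks it for destruction and acts with TCF/LEF factors in the nucleus. Secreted Frizzled-related proteins bind Wnts outside the cell, and Dickkopf proteins other than Dkk3 bind Lrp5 and Lrp6. In brain the pathway is known for patterning the early neural tube, for blood vessel growth and the blood-brain barrier, and for synapses in the adult.

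The promoters shown here belong to the Wnt genes in the 3 pairs with the largest correlations in size across animals. Of these pairs, Sfrp2 and Sfrp5 ran in opposite directions. The promoter of Dkk1, a known target of the canonical pathway, is shown as well. Each sequence is the 250 bases before the start of transcription, from RefSeq on GRCm38.p6, read 5′ to 3′ on the gene's strand. The windows are chr1:74771642-74771891 on the plus strand for Wnt6, chr11:59306680-59306929 on the plus strand for Wnt9a, chr5:128600856-128601105 on the plus strand for Fzd10, chr19:42202253-42202502 on the minus strand for Sfrp5, chr3:83766071-83766320 on the plus strand for Sfrp2 and chr19:30549497-30549746 on the minus strand for Dkk1. Capitals mark GC boxes (GGGCGG, or CCGCCC on the other strand) and the core of the TCF/LEF motif (CTTTGA, or TCAAAG on the other strand), and matches of the 2 motifs can share at most 1 letter.
Wnt6: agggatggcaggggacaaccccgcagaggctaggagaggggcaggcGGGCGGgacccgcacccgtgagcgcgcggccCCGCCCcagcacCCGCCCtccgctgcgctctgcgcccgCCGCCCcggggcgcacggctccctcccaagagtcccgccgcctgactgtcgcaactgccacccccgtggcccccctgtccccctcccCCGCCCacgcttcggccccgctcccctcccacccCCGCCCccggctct
Wnt9a: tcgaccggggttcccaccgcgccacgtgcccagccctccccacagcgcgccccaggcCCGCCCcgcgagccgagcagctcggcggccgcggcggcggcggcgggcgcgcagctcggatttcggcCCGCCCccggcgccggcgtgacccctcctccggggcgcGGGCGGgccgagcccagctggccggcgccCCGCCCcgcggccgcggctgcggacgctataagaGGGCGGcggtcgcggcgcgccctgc
Fzd10: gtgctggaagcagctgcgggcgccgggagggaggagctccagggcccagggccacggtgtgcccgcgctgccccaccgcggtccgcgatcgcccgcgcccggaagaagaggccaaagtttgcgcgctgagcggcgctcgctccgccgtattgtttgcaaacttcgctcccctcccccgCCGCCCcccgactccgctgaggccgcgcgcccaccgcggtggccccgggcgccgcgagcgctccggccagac
Sfrp5: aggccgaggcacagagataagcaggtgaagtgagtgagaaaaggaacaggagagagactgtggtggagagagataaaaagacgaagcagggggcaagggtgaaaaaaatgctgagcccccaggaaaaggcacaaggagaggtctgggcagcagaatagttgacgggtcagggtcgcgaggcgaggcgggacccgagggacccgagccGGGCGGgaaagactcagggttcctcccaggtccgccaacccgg
Sfrp2: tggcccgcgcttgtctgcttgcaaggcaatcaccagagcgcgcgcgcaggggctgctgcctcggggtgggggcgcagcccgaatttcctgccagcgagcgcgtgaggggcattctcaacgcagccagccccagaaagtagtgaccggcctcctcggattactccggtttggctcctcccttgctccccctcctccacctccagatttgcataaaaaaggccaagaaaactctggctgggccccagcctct
Dkk1: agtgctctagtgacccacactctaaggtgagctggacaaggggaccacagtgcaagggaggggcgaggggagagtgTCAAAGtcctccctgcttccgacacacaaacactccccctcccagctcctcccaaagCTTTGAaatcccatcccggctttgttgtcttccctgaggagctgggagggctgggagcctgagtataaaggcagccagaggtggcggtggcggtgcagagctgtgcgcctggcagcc
The Wnt6 window held 6 GC boxes and the Wnt9a window 5, those of Fzd10 and Sfrp5 1 each, and those of Sfrp2 and Dkk1 0. The only TCF/LEF cores among the 6 windows were the 2 of Dkk1. The table had windows for 27 of the 43 genes, 31 windows in all. At least 1 GC box stood in 24 of these 31 (77.4%), and in 32.7% of all 32851 windows. A TCF/LEF core stood in 4 of 31 (12.9%), those of Fzd1, Dkk1, 1 of Wnt5b and 1 of Wnt11, and in 13.8% of all windows. The median GC content was 71.2% in Wnt gene windows and 52.4% in all windows. A match is a description of letters and not a bound site.

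The arrays of 3 animals stood apart as a whole: the SD over probes was 0.258 for animal 178, 0.244 for animal 213 and 0.183 for animal 336, and at most 0.1503 on the other arrays used, with a median of 0.0764. Animal 178 held the highest or lowest value of 15 of the 43 genes, animal 213 of 13 and animal 336 of 6. Results that rest on them are given with and without them. The array of animal 144 (SD 0.392), on which 15 of the 43 genes and 40.4% of all genes lay outside the range of the other arrays, was left out by the rule. Array medians ran between -0.00627 and 0.0250, and no value of these probes lay at the ends of the scale.

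Sfrp1 and Lrp6 varied most between brains among the 43 genes. The SD of the Wnt genes over animals had a median of 0.0475, against 0.0546 for all genes, and 4 of 43 had an SD of at least 0.1, as had 8.62% of all genes. These 4 were Sfrp1 (0.208), Lrp6 (0.157), Dkk3 (0.110) and Wnt10a (0.103), of which Wnt10a had an SD of 0.0960 without the 3 wide arrays. The inhibitors outside the cell thus held the widest and some of the narrowest genes: the 4 secreted Frizzled-related genes ran between 0.0290 for Sfrp5 and 0.208 for Sfrp1, and the 4 Dickkopf genes between 0.0259 for Dkk1 and 0.110 for Dkk3. By family the median SD was 0.0420 in the ligands, 0.0428 in the Frizzled receptors, 0.0509 in the Dishevelled genes, 0.0598 in the Dickkopf genes and 0.0652 in the secreted Frizzled-related genes.

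**Figure D1:**
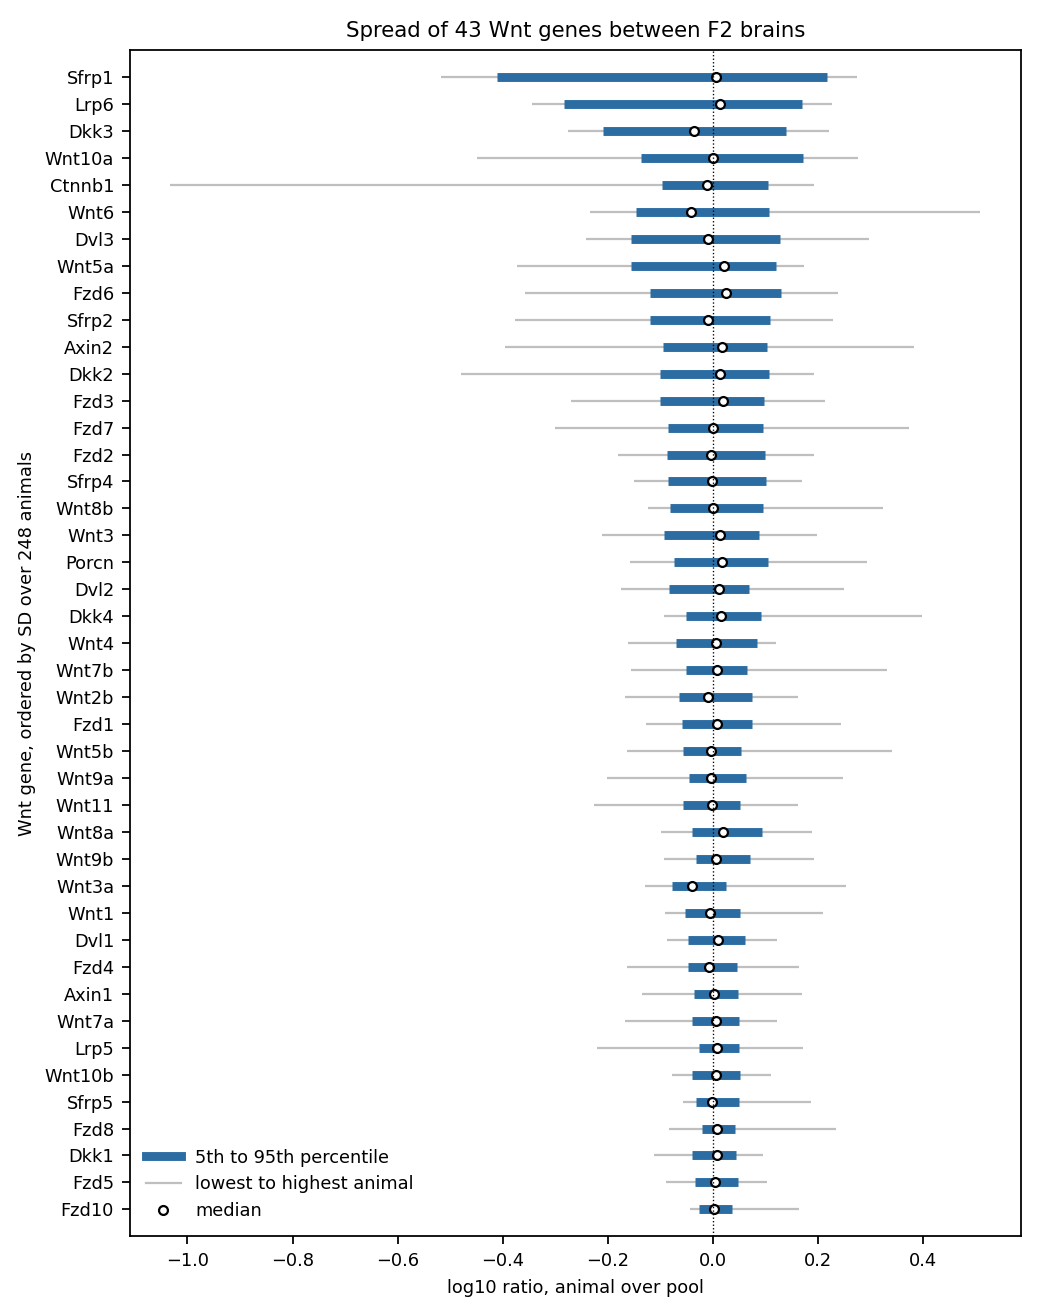
The log10 ratio of animal to pool (x axis) of each of the 43 Wnt genes (rows, by SD over 248 animals), with the 5th to 95th percentile as a thick bar, the lowest and highest animal as a thin line and the median as a point. Sfrp1 and Lrp6 at the top have wide bars and short tails, while Ctnnb1 has a narrow bar and a tail that reaches -1.03 in animal 178.

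Among the ligands, Wnt10a ran between -0.449 in animal 336 and 0.276 in animal 335, with a median of 0.000836. This gene was measured on fewer arrays than the others (235 of 248). Its gaps hold the probe's mean, which is also the median given here. Wnt6 had a lowest value of -0.234, a median of -0.0417 and a highest of 0.509, in animal 178. Wnt5a, a ligand best known for beta-catenin-independent signalling, had a lowest value of -0.373, in animal 178, a median of 0.0207 and a highest of 0.174. Without the 3 wide arrays the highest value of Wnt6 was 0.329 and the lowest of Wnt5a was -0.314.

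Among the receptors, Fzd6, which acts in planar cell polarity, varied most: lowest -0.357, median 0.0256, highest 0.238, and an SD of 0.0744. Fzd10, Fzd5 and Fzd8 had SDs of 0.0236, 0.0259 and 0.0274, among the 5 smallest of the 43 genes. Intensities were not analysed, so whether a small SD reflects steady expression or a weak signal was not tested. Fzd10 ran between -0.0443 and 0.164, with its median at 0.00225 and its highest value in animal 336. The 5th and 95th percentiles of Fzd10 differed by a factor of 1.15, against 4.25 for Sfrp1.

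Inside the cell, Ctnnb1, which encodes beta-catenin, had an SD of 0.0928. It stood at -1.03 in animal 178, with a median of -0.0106 and a highest value of 0.193, and without the 3 wide arrays the lowest value was -0.319 and the SD 0.0663. Dvl3, a Dishevelled gene, ran between -0.242 and 0.297 with a median of -0.00856 and an SD of 0.0850. Sfrp2, a secreted inhibitor, had a lowest value of -0.377, in animal 336, a median of -0.00884 and a highest of 0.229. Dkk3, which does not act on Lrp5 and Lrp6 as the other Dickkopf proteins do, had a lowest value of -0.275, a median of -0.0367 and a highest of 0.222.

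Lrp6 and Sfrp1 fell into 3 levels across the F2 animals, as no other of the 43 genes did by the same description. For every gene, 3 normal components of 1 variance with weights of 25%, 50% and 25% were set against a single normal. A gene was called when the Bayesian information criterion (BIC) improved by over 10, the outer means lay at least 2 within-level SD apart and the excess kurtosis was under 0. This called 2 of 43 Wnt genes and 142 of 11508 genes (1.23%), and both stayed called at a gain of over 20, as 1.02% of all genes did. The BIC gain was 204.6 for Lrp6 and 187.6 for Sfrp1. Just outside the call were Sfrp5 and Wnt9b, with gains of 14.96 and 10.49, whose excess kurtosis was above 0, at 9.61 and 5.95. Dkk3, next in SD after Sfrp1 and Lrp6, had a gain of 0.0327.

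Sfrp1, which binds Wnt proteins and blocks their access to Frizzled, lies on chromosome 8 and was measured by 1 probe. Its lowest animal stood at -0.518, its median at 0.00523 and its highest at 0.275. The levels had means of -0.373, 0.00514 and 0.179, with a within-level SD of 0.0538, and held 60, 126 and 62 animals (24.2%, 50.8% and 25.0%). The high level was 3.56-fold above the low level in the values as deposited. On the linear scale the means were 0.424, 1.01 and 1.51 times the pool, and the midpoint of the outer levels was 0.968. The low level stood clear of the rest, while the middle and high levels met.

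Lrp6, the co-receptor without which canonical Wnt signals are weak, lies on chromosome 6 and was measured by 2 probes that gave different pictures. Probe 10024406779 had a lowest value of -0.732, a median of 0.0285, a highest of 0.438 and an SD of 0.320. It showed the 3 levels: means of -0.528, 0.0350 and 0.283, a within-level SD of 0.0745, and 73, 119 and 56 animals, so that the high level was 6.46-fold above the low one. Probe 10024400587 had a lowest value of -0.484, a median of 0.00691, a highest of 0.127 and an SD of 0.0444. This probe showed no levels (BIC gain -10.7), and its 5th and 95th percentiles differed by a factor of 1.27, against 8.13 for the other probe. Over the 248 animals the probes had a Pearson r of -0.213 and a Spearman rho of -0.160, and r was -0.212 without the 3 wide arrays. The Lrp6 value used elsewhere is the mean of both probes, with levels at -0.254, 0.0203 and 0.145 that held 73, 120 and 55 animals. The levels of Lrp6 were thus seen with 1 of its 2 probes, and probe sequences were not used here.

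The probes of Wnt8b, the only other of the 43 genes with more than 1 probe, also moved apart. Their r was 0.107 (0.0507 without the 3 wide arrays) and rho was 0.0320, with SDs of 0.101 and 0.0447. A gene value of Lrp6 or Wnt8b therefore depends on the probe.

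**Figure D2:**
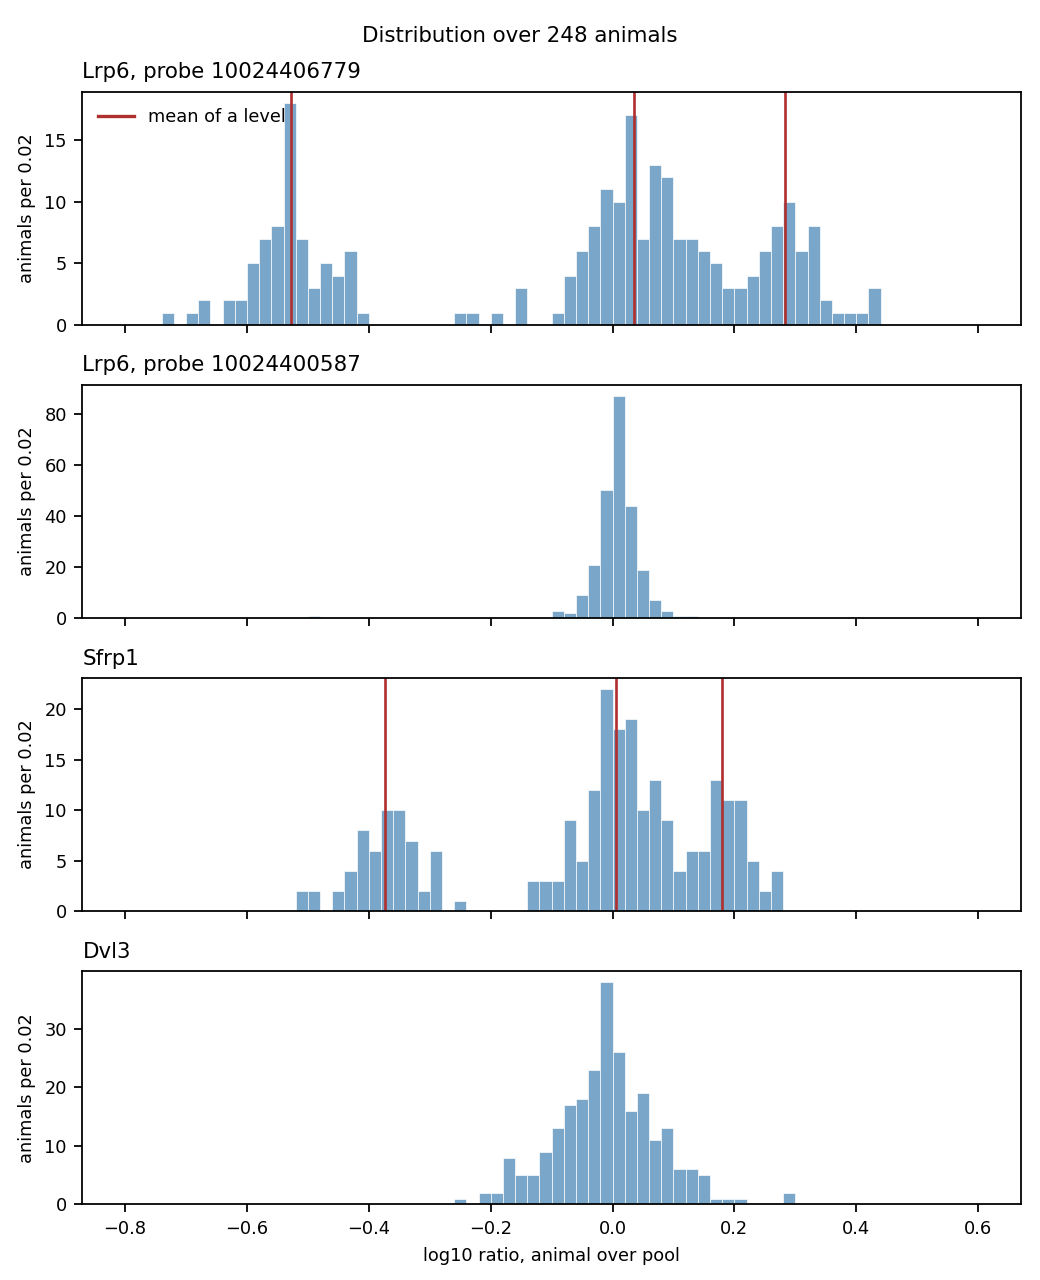
Number of animals (y axis, per 0.02 of log10 ratio) by log10 ratio to the pool (x axis) for the 2 probes of Lrp6, for Sfrp1 and for Dvl3, over 248 animals, with lines at the means of the levels. Probe 10024406779 of Lrp6 and Sfrp1 each show a separate low group at -0.528 and -0.373, while probe 10024400587 and Dvl3 show 1 peak.

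The levels were also described within each stretch of animal numbers, which splits the same animals and is no independent test. Among the 124 animals numbered 193 or higher, the Lrp6 gene value had levels at -0.249, 0.0148 and 0.146 with 39, 61 and 24 animals, and among the 124 numbered up to 192 at -0.260, 0.0266 and 0.145 with 34, 60 and 30 animals. For Sfrp1 the levels were -0.370, 0.00171 and 0.175 with 27, 68 and 29 animals in the higher numbers, and -0.375, 0.00917 and 0.183 with 33, 59 and 32 in the lower numbers. Each of the 9 combinations of an Lrp6 level with a Sfrp1 level occurred, in 13 to 60 animals. Both low levels met in 15 animals and both high levels in 13. Neither gene had an absolute r of at least 0.3 with any of the other 42 Wnt genes, the nearest being Ctnnb1 for Lrp6 (0.244) and Wnt5a for Sfrp1 (0.228).

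The genes whose pattern across animals was most like that of Lrp6 or Sfrp1 lay mostly on the same chromosome. Likeness was the Pearson r over 248 animals, given as a description. Since both genes fall into clusters of animals, r within the larger cluster and within the low cluster is given in brackets in that order. The larger cluster lies above the low level and pools animals of the middle and high levels. Its r is therefore not free of the difference between those levels. At least 5 of the 10 most alike genes stood on 1 chromosome for Dvl3 (10), Lrp6 (9) and Sfrp1 (8), 3 of 43 Wnt genes, against 4.69% of all genes. The counts of these 3 were the same without the 3 wide arrays (5.49% of all genes). The next highest counts were 4, for Dkk4 and Ctnnb1, and both were 2 without the wide arrays.

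Of the 10 genes most like Lrp6, 9 lay on chromosome 6. Mgp, an inhibitor of calcification, was the closest, with r of -0.752 and 12 measured genes between it and Lrp6 (r -0.710 in 174 animals and -0.314 in the 74 of the low cluster). Gpr19, an orphan receptor gene separated from Lrp6 by 1 measured gene, had r of 0.689 (0.524 and -0.163). Ninj2 followed at -0.577 (-0.438 and -0.120), Efcab12 at -0.544 (-0.507 and 0.0292) and Klrd1 at -0.536 (-0.416 and 0.0631). Eps8, a regulator of actin, stood at 0.535 (0.481 and 0.311). Dnah6, the farthest of the 9 with 303 measured genes between, had r of 0.525 (0.340 and 0.0127). Syn2, a synapsin gene, stood at -0.524 (-0.318 and -0.0951) and Tmcc1 at -0.517 (-0.399 and -0.0442). Blk, on chromosome 14, had r of -0.518 (-0.370 and 0.199). Within the low cluster the size of r was thus over 0.3 for Mgp and Eps8 alone of these 10. An absolute r of at least 0.3 with Lrp6 was found for 38 of 609 genes on chromosome 6 (6.24%), 0.108% of placed genes elsewhere and 0.452% of all genes.

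Of the 10 most like Sfrp1, 8 lay on chromosome 8. Adam18, separated from it by 1 measured gene, had r of -0.790 (-0.726 in 188 animals and -0.0828 in the 60 of the low cluster). Gsr, glutathione reductase, had r of 0.772 (0.547 and -0.141), with 30 measured genes between. Fgl1 stood at -0.754 (-0.659 and -0.332), Wrn, a helicase gene, at -0.735 (-0.639 and -0.345) and Tti2 at -0.709 (-0.528 and -0.478). Rab11fip1 stood at 0.704 (0.509 and 0.282), Eif4ebp1, a repressor of translation, at 0.631 (0.410 and 0.127) and Sh2d4a at 0.621 (0.426 and 0.0532). The 2 that lay elsewhere or had no place were Ccdc183 on chromosome 2, with r of 0.736 (0.635 and 0.353), and a transcript listed as GOT1, with r of -0.765 (-0.723 and 0.0608). On chromosome 8, 45 of 534 genes (8.43%) had an absolute r of at least 0.3, against 0.0389% of placed genes elsewhere and 0.487% of all genes. For Adam18 r was -0.776 in the higher and -0.811 in the lower animal numbers, and for Mgp and Lrp6 -0.746 in the higher and -0.757 in the lower numbers.

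Dvl3 was like genes of a chromosome other than its own. RefSeq places Dvl3 on chromosome 16, yet the 10 genes most like it all lay on chromosome 17. A pattern of at least 5 of 10 on a chromosome other than the gene's own was found for 0.786% of placed genes (0.971% without the 3 wide arrays). An absolute r of at least 0.3 with Dvl3 was found for 82 of 521 genes on chromosome 17 (15.7%), 7.48% of placed genes elsewhere and 7.77% of all genes. Gnptg, which helps tag lysosomal enzymes, had r of -0.776, and Kremen2, a membrane receptor of Dickkopf proteins, r of 0.747. Gfer stood at 0.743, Decr2 at 0.739, Rps2 at -0.710, H2-Q5 at -0.668, Tcte3 at -0.662, Rps2-ps9 at -0.652, Pkmyt1 at 0.644 and Aars2 at 0.609. For Kremen2 r was 0.628 in the higher and 0.835 in the lower animal numbers, and for Gnptg -0.784 and -0.772. Dvl3 had no 3 levels (BIC gain -10.8), and its 1 probe was not matched to the genome, so what the probe detects was not tested. Dvl3 was looked at after its values were seen.

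Dkk3, by contrast, had large correlations and no such chromosome: its most alike genes, led by Pde1a (0.834), Terf2 (0.819), Nedd4 (0.816) and Cpd (0.814), were spread over several chromosomes. An absolute r of at least 0.3 with Dkk3 was found for 15.0% of all genes and 12.8% of those on its chromosome 7.

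**Figure D3:**
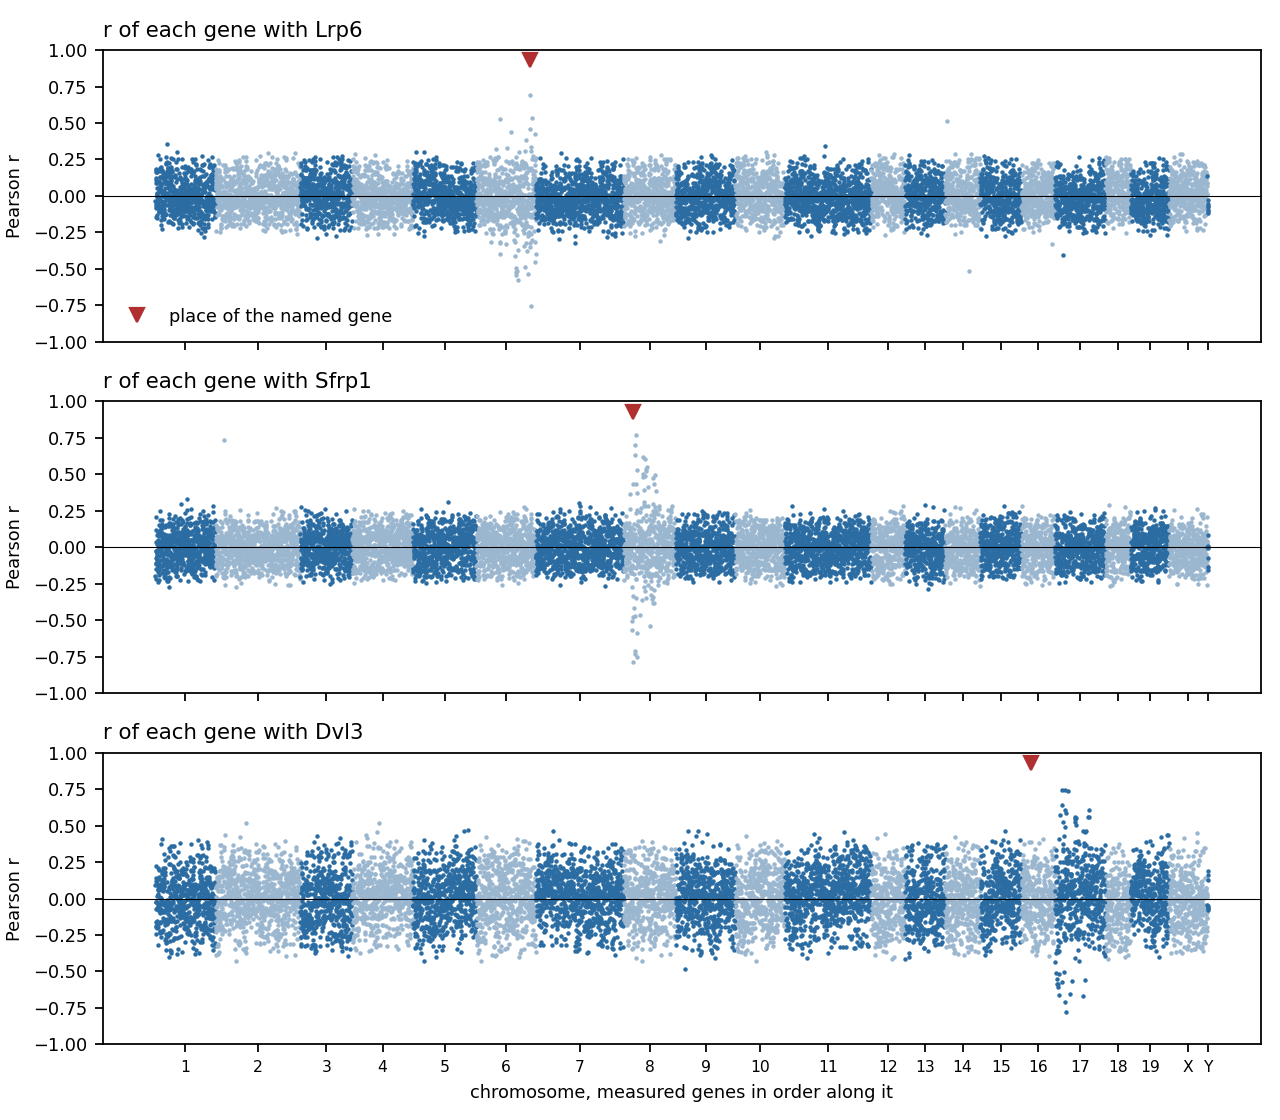
Pearson r (y axis) of each placed gene with Lrp6, Sfrp1 and Dvl3 over 248 animals, with the genes in order along the chromosomes (x axis) and a triangle at the place of the named gene. The points spread furthest from 0 around the triangle for Lrp6 on chromosome 6 and Sfrp1 on chromosome 8, and for Dvl3 on chromosome 17, away from its triangle on chromosome 16.

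The Wnt genes were also set against each other. Of their 903 pairs, 161 (17.8%) had an absolute r of at least 0.3, 105 positive and 56 negative, against 21.4% of all pairs of genes. Without the 3 wide arrays the counts were 137 (15.2%) of Wnt pairs and 19.2% of all pairs. The genes with most such partners were Wnt5a (18), Ctnnb1 (16), Fzd2 and Wnt6 (14 each). Without the 3 wide arrays they had 13, 10, 14 and 9, and Sfrp5 then had most (15). Over all 248 arrays Dkk1, Lrp6, Sfrp1 and Wnt10b had 0.

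The closest pair was made of 2 ligands, Wnt6 and Wnt9a, whose GC-rich promoters are shown above, with r of 0.710 and rho of 0.614. Their r was 0.626 without the 2 animals farthest from the median of Wnt6, 0.709 in the higher and 0.712 in the lower animal numbers. Many Wnt genes had a few far animals, so r was also taken over the animals in the main component of both genes, and there it was 0.550 (n = 241). Each pair of this and the next paragraph had a two-sided permutation p of 1e-05 for r and for rho, the smallest that 100000 permutations can give. The pairs were picked as the largest of 903, and no p was adjusted over them.

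The transcripts of Wnt6 and Wnt9a both correlated with that of a receptor gene, and binding was not measured. Fzd7, a canonical Wnt receptor, had r of 0.648 with Wnt9a (0.520 in the main components, n = 241) and 0.594 with Wnt6 (0.436, n = 244), and Wnt6 had r of 0.607 with Wnt8b (0.475, n = 244). Ctnnb1 ran against Fzd7 at -0.615 (-0.462, n = 245), with -0.450 in the higher and -0.753 in the lower animal numbers. It ran against Porcn, whose product acylates Wnts, at -0.569 (-0.528, n = 246). A second set joined Sfrp5 with Fzd10 at 0.662 (0.451, n = 238) and set it against Sfrp2 at -0.656 (-0.527, n = 238). Sfrp2 and Wnt5a rose and fell together across animals at 0.630 (0.531, n = 229), and Wnt5a ran against Wnt9b at -0.615 (-0.331, n = 227).

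Wnt genes that are neighbours in the genome, with no measured gene between, were also described. The pairs above were picked for their large r, so no comparison with them is made. For Wnt6 and Wnt10a r was 0.0552 (p 0.385 by permutation) and -0.00176 without the 3 wide arrays. For Wnt1 and Wnt10b r was 0.0821 (p 0.196 by permutation) and 0.136 without them. Wnt3 and Wnt9b had r of -0.158 (p 0.0140 by permutation), and -0.0997 without the 3 wide arrays. For Wnt3a and Wnt9a r was 0.0798 (p 0.197 by permutation) and rho 0.220 (p 0.00055 by permutation). The r of this pair was 0.189 without the 3 wide arrays, 0.249 without the 2 farthest animals, and -0.0982 in the higher and 0.295 in the lower animal numbers, so its value rests on which animals are taken. These 4 pairs were chosen after their values were seen.

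**Figure D4:**
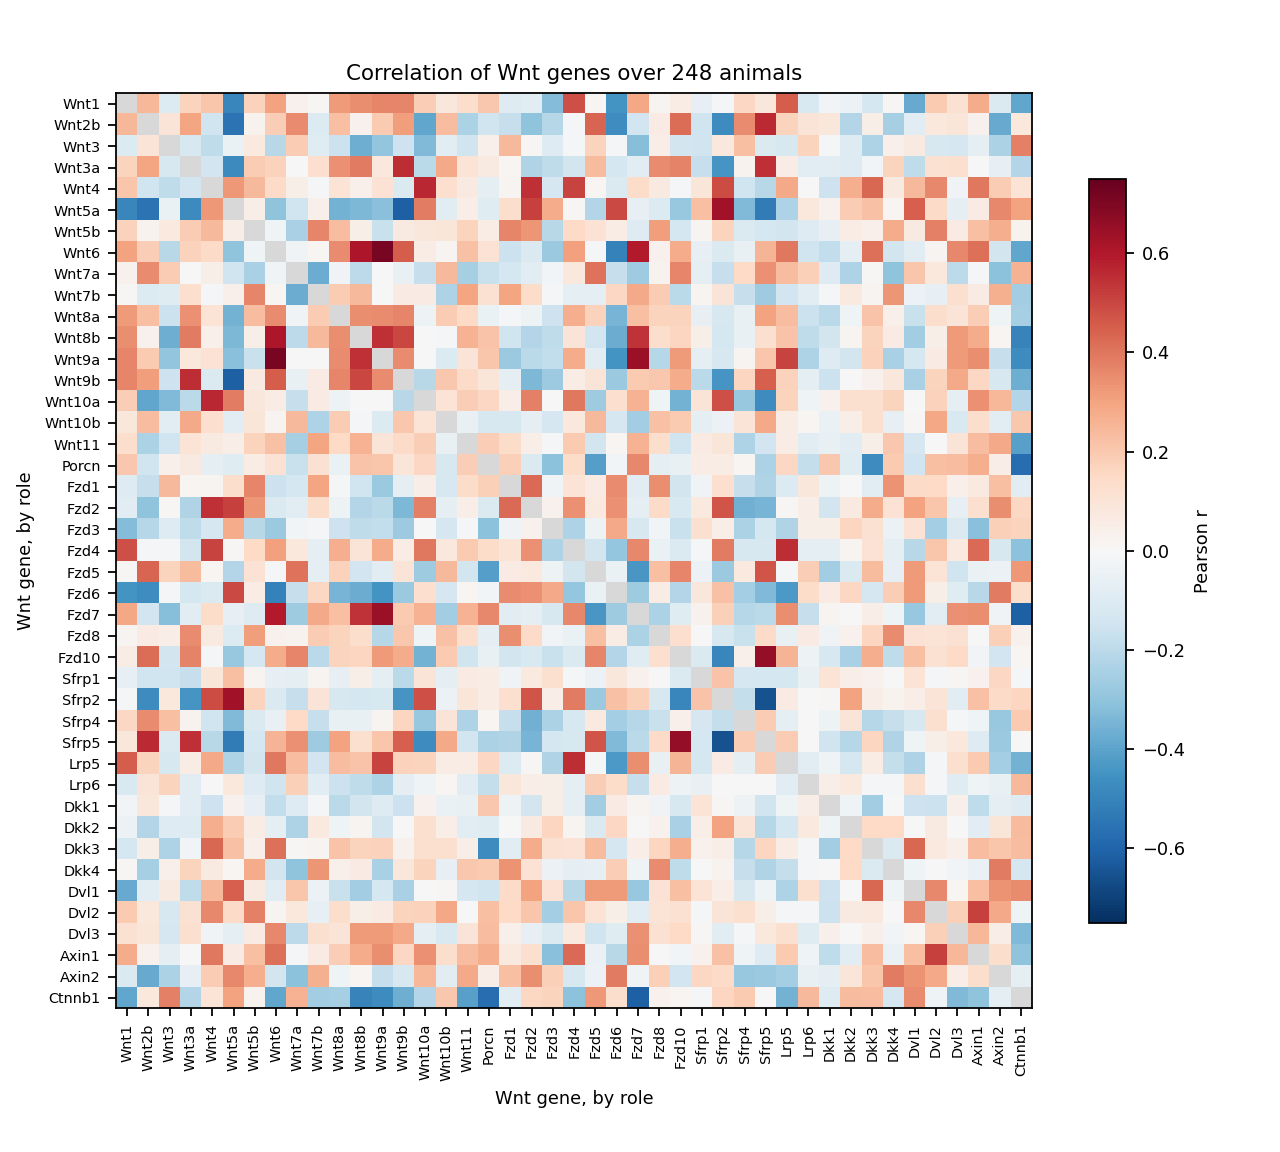
Pearson r (colour) over 248 animals between each pair of the 43 Wnt genes, ordered by role on both axes. Ligands such as Wnt6, Wnt8b and Wnt9a form a red group with Fzd7, with r up to 0.710. The rows of Lrp6, Sfrp1 and Dkk1 are pale, with no r beyond 0.3 in size, and that of Wnt10b has none either.

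The next question was whether Wnt genes varied with the amount of a brain region or cell type in the sample. For each of 7 lists of marker genes the mean z score of the measured members was taken per animal, and every gene was fitted on it with limma, with Benjamini-Hochberg adjustment over all genes outside the list. A slope is the change in log10 ratio per SD of the score. In bulk tissue, fewer cells of a type and less RNA per cell cannot be told apart. The scores of cerebellum, olfactory bulb and pituitary fell into clusters of animals, and only the larger cluster was fitted (231, 178 and 193 animals). Left out were 17 animals low in cerebellum markers, 70 high in olfactory bulb markers and 55 high in pituitary markers. Slopes on these scores thus describe the spread within the larger cluster, and not the difference between clusters.

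Receptors and inhibitors were among the genes that rose with the meningeal and vascular scores. With the meninges and fibroblasts score (12 of 13 markers measured), 9 of 43 Wnt genes changed (20.9%, against 37.5% of all genes), 8 rising and 1 falling. Of all genes called with this score 55.6% rose. Fzd4, the receptor for Norrin in brain endothelium, rose most closely with it, by 0.0146 ± 0.00178 (SE, adjusted p 1.52e-12, n = 248). Wnt4 rose by 0.0203 (adjusted p 1.73e-10), Sfrp2, a fibroblast inhibitor gene, by 0.0239 (adjusted p 2.03e-06), Fzd2 by 0.0184 and Wnt10a by 0.0320. Dkk2, Lrp5 and Wnt5a rose by 0.0146, 0.00588 and 0.0158, and Lrp5 lost its call without the 3 wide arrays (0.00290, adjusted p 0.154), as did Wnt3a, the 1 that fell (adjusted p 0.288). Calls were also gained without these arrays, by Ctnnb1, Dvl2, Fzd8, Wnt10b, Wnt5b and Wnt9a (adjusted p between 0.00187 and 0.0490). In the animals numbered 193 or higher 11 Wnt genes passed (36.6% of all genes) and in those numbered up to 192 there was 1, Wnt4 (4.21% of all genes). Fzd4 had slopes of 0.0234 and 0.00731 in these stretches, and Sfrp2 0.0353 and 0.0106.

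With the brain endothelium score (12 of 13 markers), 17 of 43 Wnt genes changed (39.5%, against 39.9% of all genes), 15 rising and 2 falling. Of all genes called with this score 58.2% rose. Sfrp2 led with 0.0334 ± 0.00412 (SE, adjusted p 1.09e-12, n = 248), with slopes of 0.0315 in the higher and 0.0267 in the lower animal numbers. Fzd4 had slopes of 0.0138 in the higher and 0.00261 in the lower numbers, Wnt4 0.0225 and 0.0105, and Wnt10a 0.0274 and 0.0132. In the higher numbers 7 of 43 passed (26.1% of all genes) and in the lower numbers 5 (17.6% of all genes). Over all animals Wnt4 rose by 0.0191, Wnt5a by 0.0250, Fzd4 by 0.00849 and Fzd2 by 0.0143, with adjusted p between 1.36e-09 and 0.000441. Ctnnb1, Wnt10a and Dkk2 rose by 0.0227, 0.0251 and 0.0147. Wnt9b and Wnt7a lost their calls without the 3 wide arrays (adjusted p 0.0977 and 0.127). Fzd3, Fzd6, Fzd8 and Wnt5b gained calls without them (adjusted p 0.0420, 0.0365, 0.00624 and 0.0195). Sfrp2, Wnt4, Wnt5a, Fzd4, Fzd2, Wnt10a and Dkk2 passed with both the meningeal and the endothelial score. The share of all genes that passed with both is not given.

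With the choroid plexus score (10 of 13 markers), 17 of 43 Wnt genes changed (39.5%, against 41.1% of all genes), 10 rising and 7 falling. The share called was near that of all genes, of whose calls 51.7% rose. In the higher numbers 12 of 43 passed (25.1% of all genes) and in the lower 16 (29.4%). Fzd4 rose by 0.0133 ± 0.00182 (SE, adjusted p 6e-10, n = 248), Wnt6 by 0.0266 (adjusted p 1.48e-05), Wnt1 by 0.0102, Fzd7 by 0.0183 and Lrp5 by 0.00838. Dvl1, Ctnnb1 and Wnt5a fell, with slopes of -0.0112 (adjusted p 1.41e-06), -0.0307 (adjusted p 1.77e-06) and -0.0230. Without the 3 wide arrays the slope of Ctnnb1 was -0.0157 (adjusted p 0.00151) and that of Fzd7 0.0119, and Wnt10b lost its call (adjusted p 0.231). Fzd2 and Wnt10a gained calls without them (adjusted p 0.00554 and 0.0209). Fzd4, Wnt6 and Ctnnb1 kept their direction in both stretches of animal numbers.

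Oligodendrocyte precursors are the dividing cells that give rise to myelinating glia. Their score used Cspg4, Gpr17, Matn4, Olig1, Olig2, Pdgfra and Sox10 (7 of 9 markers). It cannot tell precursors from other cells that express these genes. The score went with 21 of 43 Wnt genes (48.8%, against 51.6% of all genes), 16 rising and 5 falling. Of all genes called with this score 57.0% rose. In the higher numbers 15 of 43 passed (38.7% of all genes) and in the lower 17 (29.8%). Dvl1 rose by 0.0163 ± 0.00185 (SE, adjusted p 1.39e-14, n = 248), with 0.0159 in the higher and 0.0160 in the lower animal numbers. The receptor genes Fzd10 and Fzd5, among those of smallest SD, rose by 0.0110 and 0.0117. Fzd2 rose by 0.0197, Dkk3 by 0.0498 (limma adjusted p 1.58e-12), Wnt4 by 0.0169 and Wnt7a, a ligand for brain endothelium, by 0.0102. Fzd7 fell by 0.0198 (adjusted p 1.12e-05). Wnt7b and Lrp5 lost their calls without the 3 wide arrays (adjusted p 0.137 and 0.246), while Axin2 gained a call (adjusted p 0.0319). Lrp6 passed narrowly with 0.0221 (adjusted p 0.0497), with 0.000913 in the higher and 0.0406 in the lower animal numbers.

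With the cerebellum score (8 of 10 markers), 10 of 43 changed (23.3%, against 16.3% of all genes), 4 rising and 6 falling. Of all genes called with this score 50.3% rose. In the higher numbers 6 of 43 passed (18.7% of all genes) and in the lower 9 (9.13%). Without the 3 wide arrays Wnt10a and Wnt9a gained calls, with slopes of -0.0195 and -0.00726 (limma adjusted p 0.0097 and 0.0162). Wnt3, which is made by cerebellar neurons, rose by 0.0178 ± 0.00318 (SE, adjusted p 3.85e-06, n = 231), with 0.0169 in the higher and 0.0179 in the lower animal numbers. Porcn rose by 0.0131, Fzd1 by 0.0104 and Fzd6 by 0.0170. Dkk3, Wnt8b, Wnt8a and Wnt4 fell, with slopes of -0.0309 (adjusted p 0.000334), -0.0135, -0.00922 and -0.0127. The slope of Dkk3 was -0.0619 in the higher and -0.0180 in the lower animal numbers, and that of Wnt4 0.00180 in the higher and -0.0158 in the lower.

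Olfactory bulb (8 of 10 markers) went with 7 of 43 Wnt genes (16.3%, against 19.1% of all genes), 5 rising and 2 falling. Of all genes called with this score 51.9% rose. Fzd6 and Fzd3, a planar polarity receptor, fell, with slopes of -0.0207 (adjusted p 0.000704) and -0.0160. Axin1 rose by 0.00825, Wnt6 by 0.0208, Wnt10b by 0.00773, Wnt2b by 0.00892 and Lrp5 by 0.00455. In the 101 fitted animals of the higher numbers limma called 7 of 43 (14.2% of all genes). In the 77 of the lower numbers it called 0 of 43 (0.348% of all genes), and 5 had an unadjusted p under 0.05. Fzd6 had slopes of -0.0189 in the higher and -0.0237 in the lower numbers. Fzd3 had slopes of -0.0231 in the higher and -0.00439 in the lower numbers. With the pituitary score (6 of 10 markers) limma called 0 of 43 at an adjusted p under 0.05, against 0.0174% of all genes, and 6 had an unadjusted p under 0.05. A fit on ranks also called 0, and 2 passed after quantile normalization.

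Across the 7 scores, Dkk3, Fzd6, Lrp5, Wnt10b, Wnt4 and Wnt5a each passed with 4, while Dkk4, Wnt11 and Wnt5b passed with 0. The share of all genes with such counts is not given, so the counts do not set these genes apart. Without the 3 wide arrays Wnt5b passed with meninges and with brain endothelium (limma adjusted p 0.0490 and 0.0195). Sfrp1 passed with 1, brain endothelium (0.0347, adjusted p 0.0235). The scores share animals and are not independent, so the counts do not add up.

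**Figure D5:**
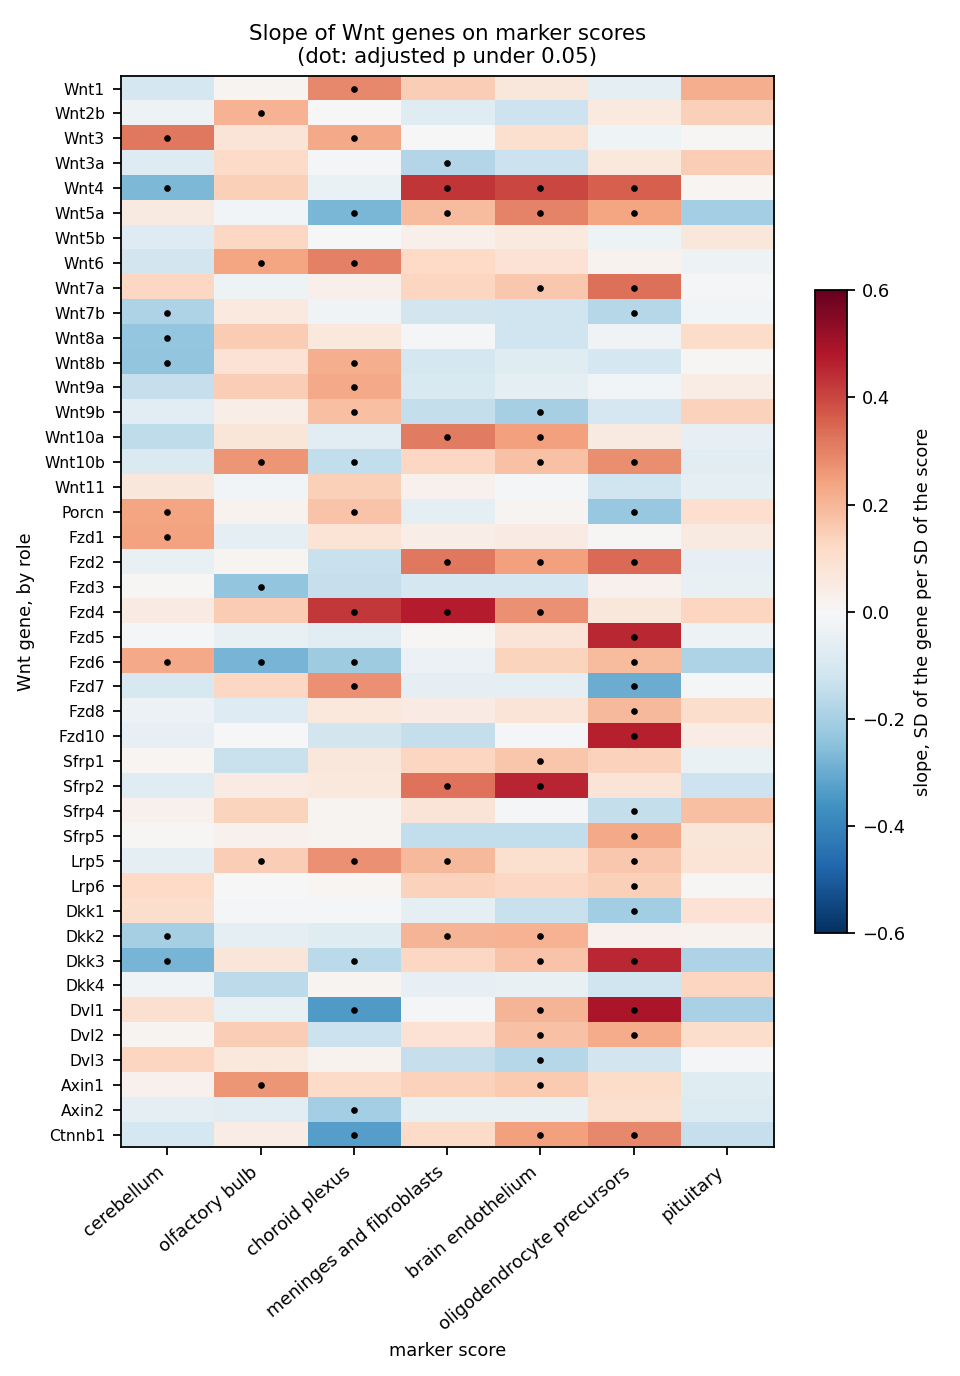
Slope of each of the 43 Wnt genes (rows, by role) on the 7 marker scores (columns), in SD of the gene per SD of the score (colour), with a dot where the adjusted p from limma was under 0.05. Fzd10, Fzd5, Dvl1 and Dkk3 are dark red under oligodendrocyte precursors, Sfrp2 under brain endothelium and Fzd4 under meninges, while the pituitary column has 0 dots.

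Animal number, whose meaning the labels do not state, went with 8 of 43 Wnt genes (18.6%, against 16.7% of all genes), 1 rising and 7 falling. The share of all called genes that rose with animal number is not given. Sfrp2 fell most clearly, with a slope of -0.0232 ± 0.00405 per 100 numbers (SE, adjusted p 4.49e-06, n = 248), and Wnt4 had a slope of -0.0132 (adjusted p 0.000103). Wnt10a, Dvl2, Wnt10b, Wnt5a and Axin1 fell too, with slopes of -0.0211, -0.00994, -0.00535, -0.0147 and -0.00538. Fzd3 rose by 0.0121 (limma adjusted p 0.0198). Ctnnb1 and Wnt3 gained calls without the 3 wide arrays, with slopes of -0.0116 and 0.0087 (limma adjusted p 0.019 and 0.0361). With array SD and animal number as covariates, 15 of 43 Wnt genes passed with the endothelial score, as did 35.8% of all genes.

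The rest of the pathway was taken from a list of 76 other Wnt genes, 45 of them measured. Counts were 13 of 45 with animal number (28.9%), 9 with cerebellum, 6 with olfactory bulb, 20 with choroid plexus, 20 with meninges, 25 with brain endothelium (55.6%), 26 with oligodendrocyte precursors and 0 with pituitary (2 at an unadjusted p under 0.05, limma), beside the shares of all genes given above. With brain endothelium 21 rose and 4 fell, beside the 58.2% of all called genes that rose. Tcf7l1, a TCF factor, rose by 0.0481 (limma adjusted p 1.35e-13) and Celsr1, a planar polarity cadherin, by 0.0454. Sp5, a direct target of beta-catenin, rose by 0.0501 with cerebellum (adjusted p 1.97e-16), by 0.0493 with meninges and by 0.0391 with choroid plexus. Sostdc1, an inhibitor that binds Lrp5 and Lrp6, rose by 0.0400 with choroid plexus (adjusted p 2.88e-07). With oligodendrocyte precursors the Wnt5a receptor Ror2 rose by 0.0219 (adjusted p 4.48e-16) and Apc, a scaffold of the destruction complex, by 0.0279. The receptor gene Ryk and Ndp, which encodes Norrin, fell, with slopes of -0.0163 (adjusted p 2.27e-09) and -0.0126. Apc and the kinase gene Csnk1a1, whose products act on beta-catenin, fell with choroid plexus, with slopes of -0.0240 and -0.0216, and without the 3 wide arrays the slope of Csnk1a1 was -0.0126.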

How the data were processed

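Brain RNA of 249 F2 mice was measured on 2-colour arrays, and 248 arrays were used. Per the labels, animal RNA carried Cy3 and the pool Cy5. The deposited values are log10 ratios per probe and array, ending at -2 and 2. Their base and direction, animal over pool, were read from Y-linked probes, whose upper values should reach a factor of 2 against a pool of both sexes. Over all probes r between 2 arrays ran between -0.344 and 0.840, with 0.0196% of pairs under -0.3. The direction was kept, as all arrays have 1 dye order and animals can lie on opposite sides of their own pool. How the authors treated background and dyes was not stated there, and intensities were not analysed here. For 1 sample the title and source name differ in animal number, and the source name was used.

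A gene value was the mean of the probes naming that gene alone and measured on at least 90% of arrays, with gaps (0.710% of values) filled by the probe's mean. Symbols come from the platform annotation, and chromosomes and gene order from RefSeq GRCm38.p6. Fits used limma 3.58.1 in R 4.3.3, on all 11508 genes less the marker list fitted, with Benjamini-Hochberg adjustment at 0.05. Both limma and the 3-level description were tested on simulated data. Scores needed 4 measured markers, and clustered scores (BIC gain over 10, means at least 3 SD apart) were fitted in the larger cluster. Other steps used Python 3.11.15, numpy 2.4.6, pandas 2.3.3 and scipy 1.17.1. Alternatives were normalization, arrays left out, probe filters, values at the scale ends, covariates, ranks and measures of spread.

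The members, lists, tests and named-gene rule were chosen with earlier results of these data known. Named genes come from the 10 genes of largest and 5 of smallest SD, genes with 3 levels, up to 8 members and 5 other pathway genes of smallest adjusted p per relation, the 10 largest pairs and the 10 genes most like Lrp6 and Sfrp1. The setting without animals 178, 213 and 336, each probe on its own, estimated level weights, Dvl3, Dkk3, neighbour pairs, the promoters and motifs shown and the chromosome counts of other members were added after seeing the data. Nothing in the labels says how animals were raised or RNA prepared in batches, so p-values measure the spread between these animals.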

Additional observations from a re-analysis of the deposited data

How the results depend on the processing

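The counts of Wnt genes with an SD of at least 0.1 (3 to 5 over the settings tried) and with 3 levels (2 in every setting run) stayed within 1.5 times of the values given. So did those for animal number, cerebellum, choroid plexus, brain endothelium and oligodendrocyte precursors under every alternative other than fits within 1 stretch of animal numbers. Within the higher and lower animal numbers, with fewer animals, brain endothelium counted 7 and 5 against 17, cerebellum 6 and 9 against 10, olfactory bulb 7 and 0 against 7, and meninges and fibroblasts 11 and 1 against 9. The olfactory bulb count was 13 under quantile normalization and 11 on ranks (21.5% of all genes), against 7 (19.1% of all genes). The meninges and fibroblasts count was 15 with animal 144 and 15 under quantile normalization, against 9 (37.5% of all genes). It was 14 with array SD and animal number as covariates (38.1% of all genes) and 18 on ranks (42.5% of all genes). No share of all genes or of all pairs is given for quantile normalization or for the fits with animal 144. The pituitary count was 2 under quantile normalization, against 0, and pairs of Wnt genes with an absolute r of at least 0.3 numbered 91 under it, against 161. The cause was not tested. There were 90 named relations of a gene with a score or with animal number. Outside the fits within 1 stretch of animal numbers, 77 of them kept direction and call in every alternative run. With those fits left aside, 16 of 789 refits lost the call and 0 changed direction. Of the 77 named relations with a score, 38 were called in both stretches of animal numbers, 33 in 1 and 6 in neither, and 1 changed direction in a stretch, Wnt4 with cerebellum (0.00180 in the higher numbers, against -0.0127 over all). Wnt4 and cerebellum lost it on ranks (adjusted p 0.215) and with probes measured on every array alone (0.0824), and Wnt5a and meninges with the covariates (adjusted p 0.386). With quantile normalization the high level of Lrp6 was 3.01-fold above the low one, against 2.50-fold for the gene value as given. With 1 array per animal and no intensities, signal over background and technical error per animal are unknown. No paired analysis was possible because all animals form 1 group.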

Other observations

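On the array of animal 144, left out above, 9 of the 43 genes lay above and 6 below the range of the other 248 animals. Wnt3a stood at 0.899, against a highest value of 0.253 elsewhere. Fzd4, Dkk2, Sfrp2, Wnt10b, Wnt11 and Ctnnb1 stood at 0.554, 0.547, 0.538, 0.517, 0.495 and 0.401, above the highest of the other animals. Wnt10a stood at -1.21, against a lowest value of -0.449 elsewhere, Wnt3 at -1.06 against -0.210, and Porcn at -0.422 against -0.157. Lrp6 (0.0281), Sfrp1 (-0.0820) and Dkk3 (-0.182) lay inside the range of the other animals.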
